A study of Danio rerio with 12 samples.

Results

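The genes described are 8 apolipoprotein genes of the zebrafish, apoea, apoeb, apoa1a, apoa1b, apoa2, apoa4a, apoc1 and apobb.1, chosen by name and found by their Ensembl IDs among the 30258 genes of the deposited count table. All 8 names matched 1 ID each. 5 of them (apoeb, apoc1, apoa1a, apoa1b and apoa2) passed the filter on low counts and are among the 13978 genes tested, and 3 (apoea, apoa4a and apobb.1) did not. Levels are given in CPM, each library's counts divided by its effective size (trimmed-mean scaling, TMM), and each count comes from the end of a transcript next to its poly(A) tail, so a level does not depend on transcript length.

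The samples were pools of 100 larval tails from wild-type fish, in 4 groups of 3 libraries. Cut SB431542 tails had lost their tip, about 200 µm, at 72 h post fertilization, were kept in 50 µM SB431542 until 90 h, and then gave a further 200 µm of tissue, so the tissue was taken 18 h after excision. Cut DMSO tails had the same excision with 0.1% DMSO, the vehicle. The labels do not give the DMSO content of the SB431542 treatment, so the effects of SB431542 and of any difference in DMSO cannot be told apart. Uncut SB431542 and uncut DMSO tails had the same treatments with no excision, and the same region was collected at 90 h. SB431542 inhibits ALK4, ALK5 and ALK7, type I receptors for TGF-β, activin and nodal. The labels name no separate clutches, and p-values here reflect how pools of one group differed, which may in part be technical.

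Apolipoproteins are the protein part of lipoprotein particles, which carry cholesterol and other lipids between tissues. The larger ones build the particle, the small exchangeable ones move between particles and direct them to enzymes and receptors, and most are made by liver, intestine and, in fish larvae, the yolk syncytial layer. Apolipoprotein E is also made outside those organs, in macrophages and microglia among other cells. Zebrafish have apolipoprotein E in the duplicate genes apoea and apoeb.

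Total counts ran from 7368986 to 12914981 per library. The median correlation of a library with the others was 0.934 to 0.944, except for uncut SB431542 replicate 4, at 0.905. The tissue had the markers of a tail, with summed levels of 81904 to 173589 CPM for skeletal muscle, 10103 to 27624 CPM for periderm (the outer layer of larval skin) and 1254 to 4606 CPM for notochord. Of 20 hepatocyte marker genes, most had few counts, among them fabp10a, which encodes the liver's fatty acid binding protein, at 0 to 10 per library and TTR, which encodes the plasma carrier transthyretin, at 0 to 2. The 3 that passed the count filter were c3a.1, for a complement protein, at 0 to 19 counts, tfa, for transferrin, at 17 to 77 counts, and RBP4, for the plasma carrier of retinol, at 10602 to 23156 counts. A count of 0 in a library allows a level of up to 0.243 to 0.443 CPM, the level of 3 counts. These floors cover counting error only.

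apoeb (ENSDARG00000040295) was the one member with high counts, 2353 to 19653 per library, and made up 94.0% to 99.4% of all counts of the 8 genes in each library. It encodes the apolipoprotein E that binds receptors of the LDL receptor family. It stood at rank 153 to 176 among all genes by level in the cut SB431542 libraries, 106 to 124 in cut DMSO, 282 to 335 in uncut SB431542 and 272 to 328 in uncut DMSO. The groups in order of mean level were cut DMSO, cut SB431542, uncut DMSO and uncut SB431542, and the last pair did not differ beyond its spread. The within-group SD of apoeb was 0.253 on the log2 scale, against a median of 0.220 over 86 genes of like level.

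Excision raised apoeb with the vehicle. It had 1596, 1533 and 1664 CPM in cut DMSO tails (replicates 1, 3 and 4), against 381, 336 and 530 CPM in uncut DMSO tails (replicates 1, 2 and 4). All cut DMSO libraries lay above all uncut DMSO libraries, as for 15.5% of all genes tested in this direction, and the lowest cut library was 2.89 times the highest uncut one. The level was 3.84-fold higher in cut DMSO tails (log2 fold change 1.94 ± 0.20 SE, adjusted p = 8.815e-06, edgeR quasi-likelihood test with Benjamini-Hochberg adjustment over all genes tested).

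apoeb rose after excision with SB431542 as well. It had 780, 717 and 1070 CPM in cut SB431542 tails (replicates 2, 3 and 4), against 382, 447 and 334 CPM in uncut SB431542 tails (replicates 2, 3 and 4). The groups did not overlap, as for 9.69% of all genes tested in this direction, and the lowest cut library was 1.60 times the highest uncut one. The level was 2.21-fold higher in cut SB431542 tails (log2 fold change 1.14 ± 0.20 SE, adjusted p = 0.002244 by edgeR). Without uncut SB431542 replicate 4, the library least like the others, the log2 fold change was 1.05 (edgeR adjusted p = 0.005702).

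Between the treatments, apoeb was lower in cut SB431542 tails, 856 ± 188 CPM, than in cut DMSO tails, 1598 ± 65.2 CPM (SD, n = 3 each). The groups did not overlap, which held in this direction for 11.5% of all genes tested, and the lowest cut DMSO library was 1.43 times the highest cut SB431542 library. The log2 fold change was -0.90 ± 0.19 SE, 1.87-fold lower with SB431542, and missed the threshold of 0.05 after adjustment (edgeR adjusted p = 0.05584, unadjusted p = 0.0001718). The adjusted p ran from 0.002434 to 0.301 over 24 alternatives, of which 9 called apoeb and all gave a lower level with SB431542, by 0.79 to 1.097 on the log2 scale. It was under 0.05 without cut SB431542 replicate 4 (0.04229), uncut SB431542 replicate 2 (0.03486), 3 (0.03779) or 4 (0.01117), or uncut DMSO replicate 4 (0.04597), and the highest value, 0.301, came without cut SB431542 replicate 3. In uncut tails apoeb had 388 ± 56.7 CPM with SB431542 and 416 ± 102 CPM with DMSO (SD, n = 3 each), groups that overlapped. That log2 difference was -0.10 ± 0.19 SE, with an interval at ± 1.96 SE of -0.48 to 0.28 (edgeR adjusted p = 0.8314). The difference between the excision responses under the treatments, the interaction, was -0.80 ± 0.27 SE on the log2 scale (unadjusted p = 0.008782, edgeR adjusted p = 0.9096), so a difference between them did not pass the test across all genes.

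apoc1 (ENSDARG00000092170) encodes apolipoprotein C-I, a small exchangeable protein that in mammals holds back lipases and the uptake of remnant particles. It was counted 5 to 145 times per library. apoc1 had 11.8, 8.09 and 6.40 CPM in cut DMSO tails, against 1.99, 0.714 and 1.73 CPM in uncut DMSO tails, in the replicate order given for apoeb. Every cut DMSO library was at least 3.21 times the highest uncut DMSO library. A rise without overlap held for 15.5% of all genes tested. apoc1 was 5.76-fold higher in cut DMSO tails (log2 fold change 2.53 ± 0.38 SE, edgeR adjusted p = 0.0004537).

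With SB431542, apoc1 had 6.41, 6.76 and 8.87 CPM in cut tails, against 2.59, 3.70 and 4.13 CPM in uncut tails. The groups did not overlap, as for 9.69% of all genes tested in this direction. The difference missed the test (log2 fold change 1.07 ± 0.34 SE, edgeR adjusted p = 0.1115, 0.08253 to 0.3032 over 24 alternatives and 0.08943 without uncut SB431542 replicate 4). In cut tails apoc1 averaged 7.35 ± 1.33 CPM with SB431542 and 8.75 ± 2.75 CPM with DMSO (SD, n = 3 each), groups that overlapped (log2 difference -0.26 ± 0.28 SE, edgeR adjusted p = 0.6934). In uncut tails it averaged 3.48 ± 0.793 CPM with SB431542 and 1.48 ± 0.676 CPM with DMSO (SD, n = 3 each). Those groups did not overlap, as for 9.48% of all genes in this direction, with a log2 difference of 1.19 ± 0.46 SE that missed the test (edgeR adjusted p = 0.2063). The interaction for apoc1 was -1.45 ± 0.54 SE (unadjusted p = 0.01459, edgeR adjusted p = 0.9096). Comparisons that share a group share its libraries: a low or high uncut DMSO level enters the excision response under DMSO, the SB431542 comparison in uncut tails and the interaction alike.

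**Figure D1:**
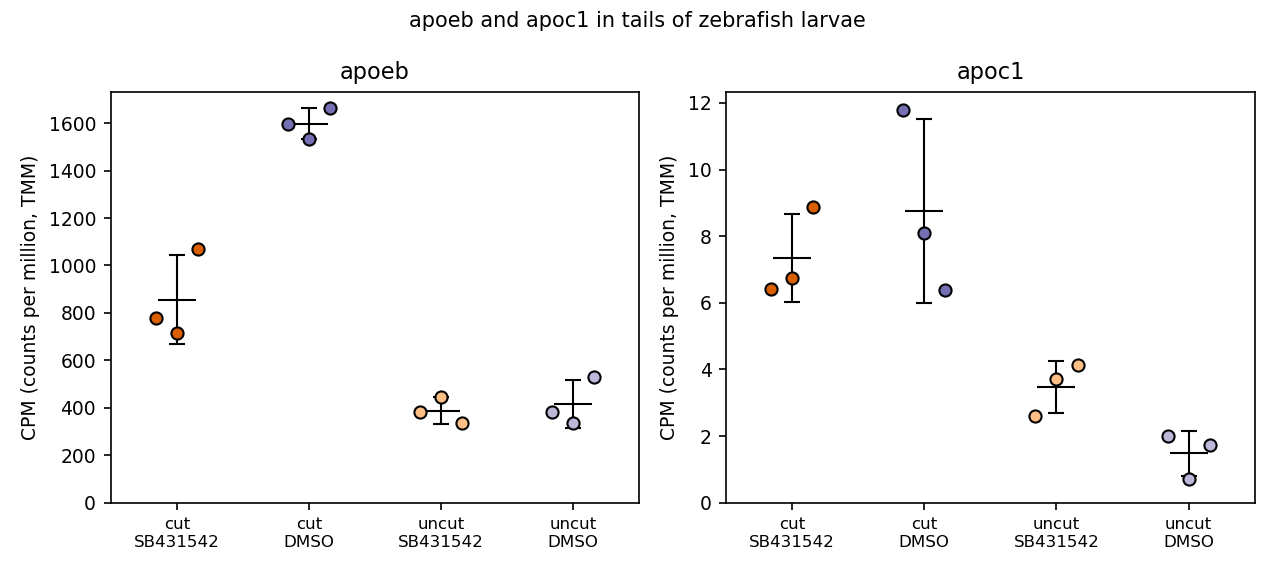
CPM of apoeb (left) and apoc1 (right) in each library, with points for the 3 libraries of a group and bars for mean ± SD. For apoeb the cut DMSO libraries, 1533 to 1664 CPM, lie above all others, and for apoc1 both cut groups, 6.40 to 11.8 CPM, lie above both uncut groups, 0.714 to 4.13 CPM.

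The counts of apoeb per count of apoc1 differed with the treatment. There were 106 to 122 apoeb counts per apoc1 count in cut SB431542 libraries, against 136 to 260 in cut DMSO libraries. In uncut tails the ratio was 80.9 to 147 with SB431542, against 191 to 471 with DMSO. Within cut tails and within uncut tails, each SB431542 library had a lower ratio than each DMSO library. The ratio was looked at after the levels were known and was not tested, and the highest value rests on 5 counts of apoc1.

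In all, 2 of the 5 tested members were called higher after excision under DMSO, against 3.65% of all genes tested, and 0 were called lower, against 1.93%. Under SB431542, 1 of the 5 was called higher, against 1.49% of all genes. edgeR called 0 of the 5 between SB431542 and DMSO in cut tails, where it called 0.286% of all genes in either direction, and 1 had an unadjusted p under 0.05, as 15.3% of all genes did. DESeq2 and limma-voom each called 1 member there, apoeb. The shares of all genes that DESeq2 and limma-voom called are not given. Their calls, here and below, are thus not set against all genes. In uncut tails edgeR called 0 (0.0787% of all genes in either direction), with 1 at an unadjusted p under 0.05, apoc1 (16.5% of all genes), and 0 by DESeq2 and limma-voom. For the interaction it called 0 (0% of all genes), with 2 at an unadjusted p under 0.05, a level that 5.05% of all genes reached, and again 0 by DESeq2 and limma-voom. The median log2 fold change of the 5 members was 2.15 after excision under DMSO and 0.65 under SB431542, beside 0.02 and 0.00 over all genes tested. The first is the value of apoa2, which was -0.15 without cut DMSO replicate 1, and the second that of apoa1a, and neither gene was called. These medians leave out the 3 members below the count filter.

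**Figure D2:**
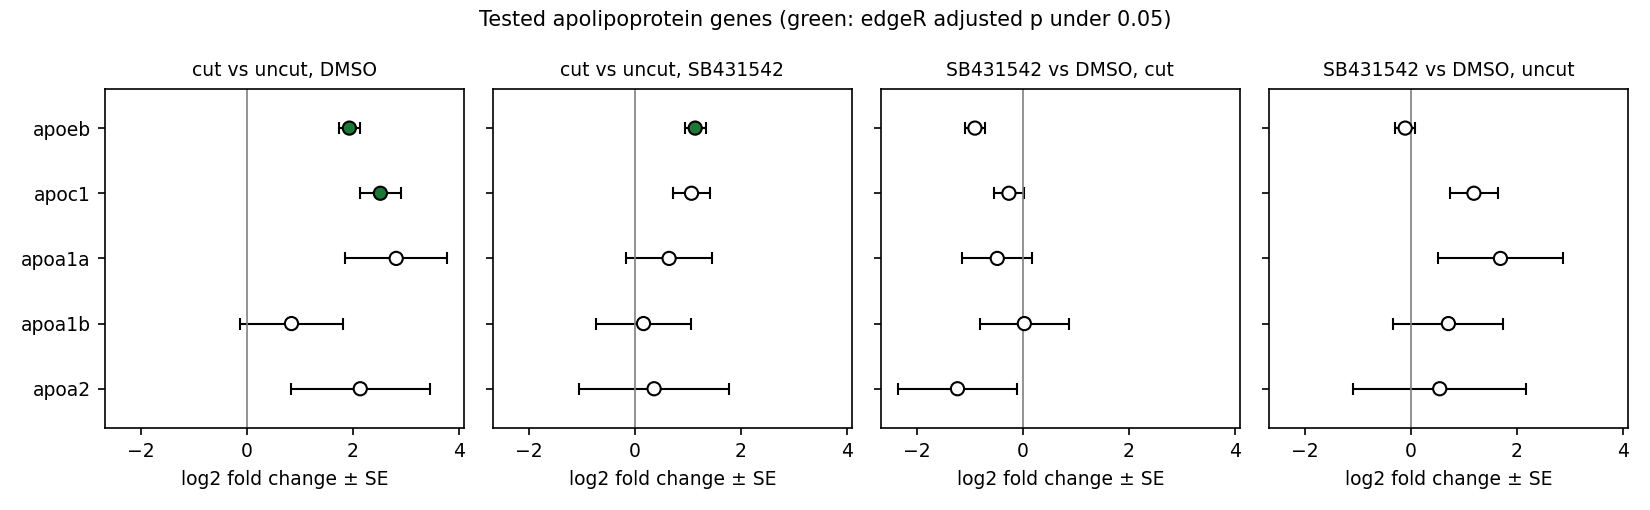
Log2 fold change of the 5 tested members in 4 comparisons, with bars of ± 1 SE and filled points for an edgeR adjusted p under 0.05. Filled points are apoeb and apoc1 after excision under DMSO and apoeb after excision under SB431542, and the bars of apoa1a, apoa1b and apoa2 are the widest in each panel.

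The other 6 members, which include the proteins that build plasma particles, had few counts, 22 to 518 per library in sum. apoa1a (ENSDARG00000012076) and apoa1b (ENSDARG00000101324) encode apolipoprotein A-I, the main protein of high-density lipoprotein. apoa1a had 7.47, 2.76 and 0.731 CPM in cut DMSO tails, against 0.531, 0.143 and 0.770 CPM in uncut DMSO tails. The groups overlapped by 1 library, cut DMSO replicate 4, and the log2 fold change of 2.82 ± 0.96 SE missed the test (edgeR adjusted p = 0.105, 0.02124 to 0.37 over 23 alternatives). It passed in 3 of these, among them DESeq2 (adjusted p = 0.02124) and, by edgeR, the fit without cut DMSO replicate 4 (0.02626). With SB431542, apoa1a had 4.24, 2.95 and 1.04 CPM in cut tails, against 3.66, 0.740 and 0.706 CPM in uncut tails, which overlapped (log2 fold change 0.65 ± 0.81 SE, edgeR adjusted p = 0.7551).

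apoa1b had 7.71, 3.04 and 1.65 CPM in cut DMSO tails, against 3.32, 3.85 and 0.481 CPM in uncut DMSO tails. With SB431542 it had 6.05, 4.38 and 2.71 CPM in cut tails, against 9.43, 1.92 and 0.302 CPM in uncut tails. The cut and uncut groups overlapped under both treatments, with log2 fold changes of 0.85 ± 0.98 SE under DMSO (edgeR adjusted p = 0.6833) and 0.17 ± 0.90 SE under SB431542 (edgeR adjusted p = 0.9539). The deposited counts of apoa1b were not whole in 12 of 12 libraries and those of apoa1a in 4 of 12, as arises when a read fits more than 1 gene and is divided. In some libraries apoa1b was not whole while apoa1a was, with 46.458 and 31 counts in cut SB431542 replicate 3. The genes that shared the divided reads are not given, and the levels of both genes are less certain for it.

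apoa2 (ENSDARG00000015866) encodes apolipoprotein A-II, another protein of high-density particles. It had 21.3, 2.38 and 1.097 CPM in cut DMSO tails, against 3.32, 0 and 2.21 CPM in uncut DMSO tails. Cut DMSO replicate 1 held 262 of its 521 counts, 50.3%, and the other cut DMSO libraries lay within the range of the uncut ones. The log2 fold change was 2.15 ± 1.31 SE with that library (edgeR adjusted p = 0.4046) and -0.15 without it. With SB431542, apoa2 had 2.90, 6.85 and 0.835 CPM in cut tails, against 6.01, 1.92 and 0.605 CPM in uncut tails, and the groups overlapped.

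The members below the count filter were read as counts. apobb.1 (ENSDARG00000022767) encodes an apolipoprotein B, the backbone of very-low-density and low-density particles, and had 52, 10 and 4 counts in cut DMSO tails, against 3, 1 and 1 in uncut DMSO tails. By level these groups overlapped, with 0.366 CPM in cut DMSO replicate 4 and 0.398 CPM in uncut DMSO replicate 1. In SB431542 tails it had 4, 2 and 0 counts after excision, against 15, 1 and 4 without. Cut DMSO replicate 1 held 53.6% of its 97 counts. With no count filter apobb.1 was called in the DMSO comparison (log2 fold change 3.19 ± 0.93 SE, edgeR adjusted p = 0.043). apoea (ENSDARG00000102004), the duplicate of apoeb, had 17, 3 and 0 counts in cut DMSO tails, against 0, 0 and 2 in uncut DMSO tails, and 2, 4 and 0 in cut SB431542 tails, against 7, 1 and 0 in uncut SB431542 tails. apoa4a (ENSDARG00000101160), for apolipoprotein A-IV, which in mammals is made mainly by the intestine, had 5 counts in all. Of these, 2, 1 and 0 were in cut SB431542 libraries and 0, 0 and 2 in uncut SB431542 libraries, with 0 in every DMSO library.

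The scarce members were often highest in the same library. Cut DMSO replicate 1 was the highest of the 12 libraries for apoea, apoa1a, apoa2, apoc1 and apobb.1, and uncut SB431542 replicate 2 was the highest for apoa1b and the second highest for apoea and apobb.1. The other 6 members together reached 14.2, 14.8 and 4.59 CPM in cut SB431542 libraries, 42.1, 9.42 and 3.84 CPM in cut DMSO libraries, 21.7, 4.88 and 2.22 CPM in uncut SB431542 libraries and 7.57, 4.14 and 3.76 CPM in uncut DMSO libraries. Both the cut DMSO and the uncut SB431542 libraries spanned a wider range than the group means, which ran from 5.16 to 18.4 CPM. The within-group SD on the log2 scale was 1.13 for apoa1a, 1.40 for apoa1b and 1.82 for apoa2, above that of 97.0%, 99.5% and 99.8% of genes of like level, while that of apoc1, 0.450, was near the median of 0.435 for its level.

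**Figure D3:**
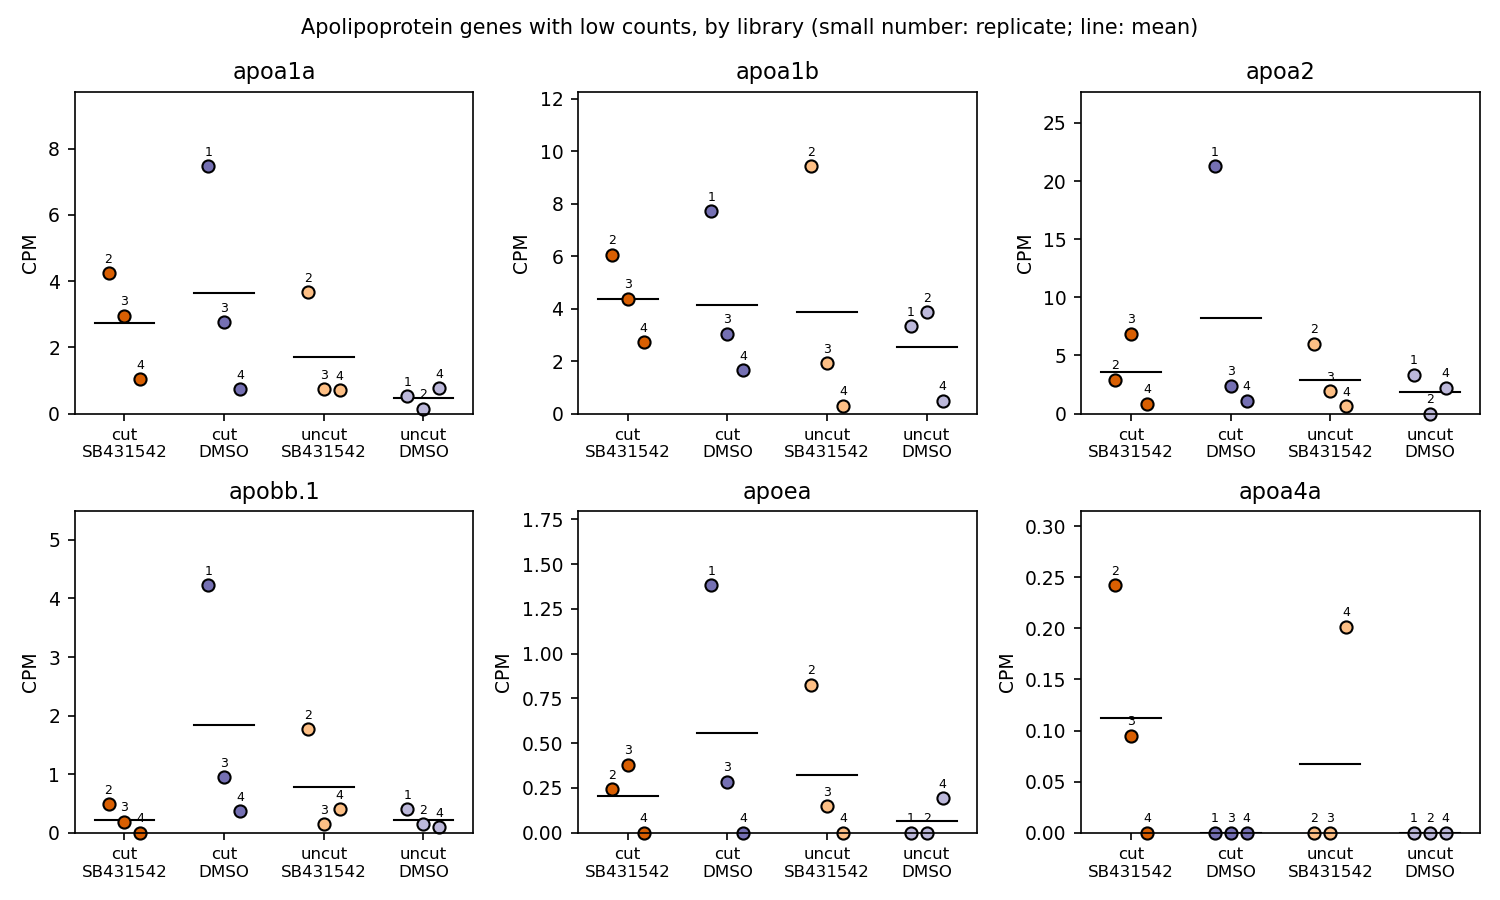
CPM of the 6 members with few counts in each library, with the replicate number above each point and a line at the group mean. Cut DMSO replicate 1 is the highest library for apoa1a, apoa2, apobb.1 and apoea, with 21.3 CPM of apoa2 where no other library passes 6.85 CPM.

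Liver genes were set beside these libraries. Almost all of the summed level of the 20 hepatocyte markers, 1284 to 2422 CPM, was RBP4. Without RBP4, which was left out after its level was seen, the 19 other genes summed to 5.20, 5.71 and 5.84 CPM in cut SB431542 libraries, 12.02, 7.32 and 8.23 CPM in cut DMSO libraries, 6.84, 5.77 and 5.85 CPM in uncut SB431542 libraries and 5.71, 3.14 and 4.04 CPM in uncut DMSO libraries. Cut DMSO replicate 1, the highest library for the scarce apolipoproteins, was also the highest here, with 148 counts. Other libraries did not match so. Cut DMSO replicate 4 was next here, at 8.23 CPM, and had 3.84 CPM of the 6 scarce members. Uncut SB431542 replicate 2 had 21.7 CPM of them and 6.84 CPM here. Much of each sum of the 19 genes was tfa, with means of 3.21, 4.84, 4.34 and 2.55 CPM in these groups in the order above. The part of liver RNA in the levels of the scarce members was not tested. The 16 markers of intestine and yolk summed to 30.9 to 47.9 CPM in cut SB431542 libraries, 27.2 to 38.6 CPM in cut DMSO libraries, 39.4 to 49.4 CPM in uncut SB431542 libraries and 29.6 to 43.1 CPM in uncut DMSO libraries, and 0 of the 6 that were tested were called after excision under either treatment by edgeR, DESeq2 or limma-voom, with 0 under DMSO and 1 under SB431542 at an unadjusted p under 0.05 by edgeR. Much of each sum was 1 gene, ANPEP (ENSDARG00000036809), with means of 18.1, 18.3, 26.1 and 22.1 CPM in these groups in that order. ANPEP was not left out as RBP4 was, so the sums say little of the other markers.

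Macrophage markers moved with apoeb after excision. Of 18 tested macrophage markers out of 28 measured, 11 rose and 0 fell under DMSO, beside 3.65% of all genes that rose. Under SB431542, 9 rose and 0 fell, beside 1.49% of all genes that rose. The 28 are gene IDs, several of them of the symbol MFAP4, and the list names mpeg1.1 and mpeg1.2 matched no ID. SPI1, a transcription factor of myeloid cells, had 21.3 ± 4.37 CPM in cut DMSO tails and 5.75 ± 1.04 CPM in uncut DMSO tails (SD, n = 3 each, edgeR adjusted p = 0.0003514). marco, a scavenger receptor gene, had 17.03 ± 5.17 CPM in cut SB431542 tails and 3.64 ± 0.770 CPM in uncut SB431542 tails (SD, n = 3 each, edgeR adjusted p = 0.001359). The summed level of the list was 148 to 265 CPM in cut SB431542 libraries, 178 to 290 CPM in cut DMSO libraries, 64.7 to 76.3 CPM in uncut SB431542 libraries and 59.2 to 72.2 CPM in uncut DMSO libraries, and no marker was at 0 in every library. In bulk tissue a change in the number of cells of a type and a change in RNA per cell cannot be told apart.

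Between the treatments in cut tails, the same list had 0 called genes in edgeR and limma-voom and 1 in DESeq2. It had 6 at an unadjusted p under 0.05 in edgeR, beside 15.3% of all genes tested. The list had a median log2 difference of -0.20, and its summed levels overlapped between the groups. Its members differed in both directions, 8 of 18 having a positive log2 difference. LCP1, for the actin-bundling protein L-plastin, was the gene DESeq2 called (adjusted p = 0.0279), with 31.0 ± 9.01 CPM in cut SB431542 tails and 63.9 ± 19.2 CPM in cut DMSO tails (SD, n = 3 each). Its groups did not overlap, as for 11.5% of all genes tested in this direction. Its log2 difference of -1.04 ± 0.26 SE was close to that of apoeb (edgeR adjusted p = 0.08844). marco had 17.03 ± 5.17 CPM in cut SB431542 tails and 7.80 ± 3.26 CPM in cut DMSO tails (SD, n = 3 each, log2 difference 1.14 ± 0.31 SE, edgeR adjusted p = 0.09272). An MFAP4 gene (ENSDARG00000088745), in the list as a macrophage marker, had 33.6 to 71.6 CPM in cut SB431542 libraries and 20.4 to 60.2 CPM in cut DMSO libraries (edgeR adjusted p = 0.5393). These genes were chosen for this comparison after their values were seen, and the summed level weights abundant members most. apoeb per summed macrophage marker level was 5.29, 2.88 and 4.04 in cut SB431542 libraries, 8.98, 5.87 and 5.74 in cut DMSO libraries, 5.90, 6.82 and 4.38 in uncut SB431542 libraries and 6.44, 5.56 and 7.34 in uncut DMSO libraries. The cut DMSO ratios overlapped with both uncut groups, and the cut SB431542 ratios lay below all cut DMSO ratios. These ratios depend on the markers summed and were not tested. Neutrophil markers gave 8 increases after excision among 9 tested under DMSO and 4 under SB431542, beside 3.65% and 1.49% of all genes. The log2 fold change was positive for 8 of the 9 under each treatment, and the list name mpx matched no gene ID. Between the treatments in cut tails 1 of the 9 was called, MMP9, for a matrix metalloproteinase, beside 0.286% of all genes in either direction. MMP9 had 34.6 ± 5.48 CPM in cut SB431542 tails and 14.2 ± 3.90 CPM in cut DMSO tails (SD, n = 3 each, 2.43-fold higher, edgeR adjusted p = 0.03432). It was higher with SB431542 in uncut tails too, with 4.13, 2.52 and 7.06 CPM, against 1.86, 0.857 and 1.35 CPM with DMSO. That log2 difference of 1.79 was called by DESeq2 (adjusted p = 0.005251) and not by edgeR (0.1012). Those groups did not overlap, as for 9.48% of all genes tested in this direction. The neutrophil list had summed levels of 330 to 510 CPM in cut SB431542 libraries and 440 to 523 CPM in cut DMSO libraries. In uncut libraries it had 246 to 403 CPM with SB431542 and 352 to 493 CPM with DMSO, so cut and uncut sums overlapped under each treatment. The called MMP9, mmp13a, adam8a and srgn had means of 14.2, 14.9, 23.5 and 22.9 CPM in cut DMSO tails. The sums thus mostly reflect other genes of the list. The part of either cell type in the level of apoeb was not tested.

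**Figure D4:**
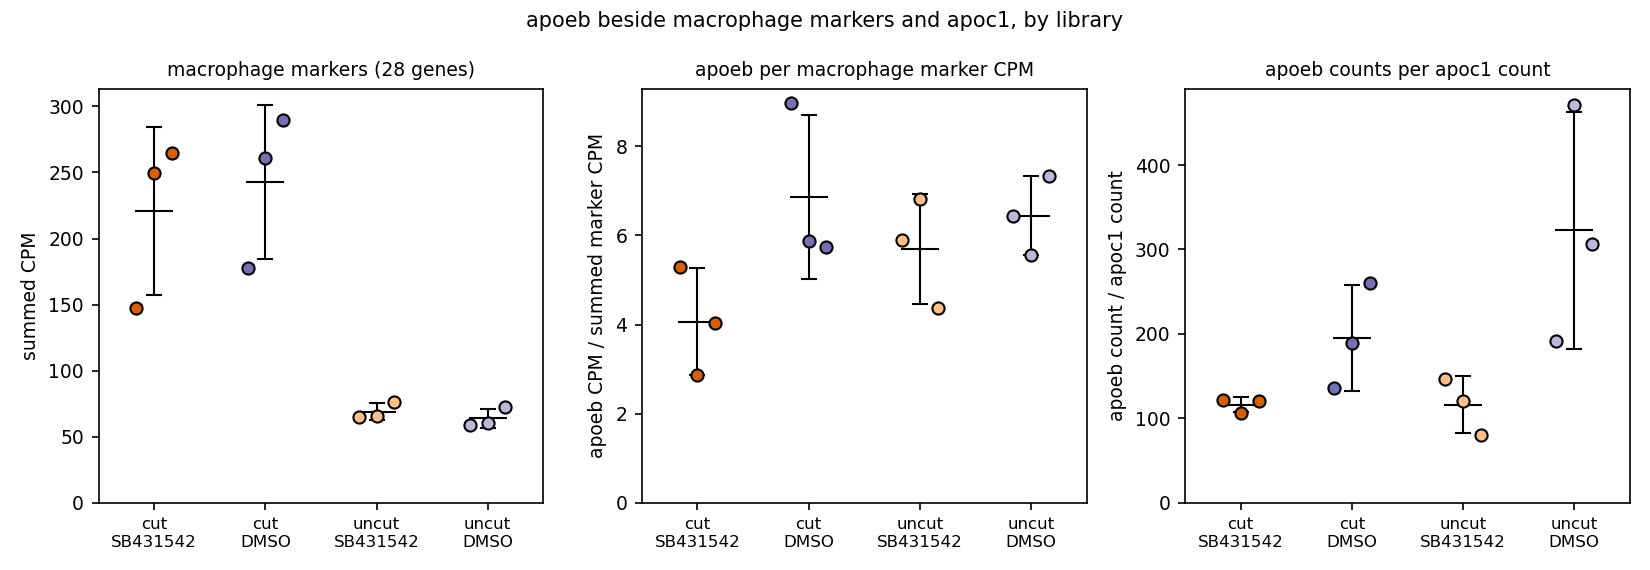
Summed CPM of 28 macrophage markers (left), apoeb CPM divided by that sum (middle) and apoeb counts per apoc1 count (right) in each library, with bars for mean ± SD. Marker sums are 148 to 290 CPM in the cut groups and 59.2 to 76.3 CPM in the uncut groups, and the ratio of apoeb to them is 2.88 to 5.29 in cut SB431542 libraries and 5.74 to 8.98 in cut DMSO libraries.

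The skin, muscle and axial markers moved in other ways. Under DMSO, 8 of 14 tested skeletal muscle markers, 8 of 12 notochord markers, 6 of 13 periderm markers, 3 of 14 markers of neurons and glia and 2 of 13 basal epidermis markers fell by edgeR, beside 1.93% of all genes, and 1 periderm marker, krt18a.1, rose. Under SB431542, 3 skeletal muscle and 6 notochord markers fell, beside 0.572% of all genes, krt18a.1 rose, and edgeR called 0 markers of neurons and glia and 0 of basal epidermis, where 4 and 3 had an unadjusted p under 0.05, DESeq2 called 1 of each and limma-voom called 0. By edgeR 10 skeletal muscle and 9 periderm markers had an unadjusted p under 0.05 there. The share of all genes at that level after excision is not given. DESeq2 called 6 and 4, the periderm ones being krt4 and cyt1l, lower, and krt18a.1 and AGR2, higher. Summed periderm levels were 13019 to 15842 CPM in cut SB431542 libraries and 17518 to 22586 CPM in uncut SB431542 libraries. The part of all these markers in the CPM of the apolipoprotein genes, which is relative to the scaled size of each library, was not tested. The TMM factors of that scaling were 0.973 to 1.23 in cut libraries and 0.805 to 0.965 in uncut libraries. The direction of apoeb and apoc1 after excision under DMSO and of apoeb after excision under SB431542 was the same with RLE and upper-quartile scaling.

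Among 12 other apolipoprotein genes, 5 were tested, and edgeR, DESeq2 and limma-voom each called 1 after excision under both treatments. CLU (ENSDARG00000010434), which encodes clusterin, also known as apolipoprotein J, a secreted chaperone found on high-density particles, had 161, 187 and 225 CPM in cut DMSO tails, against 28.2, 30.7 and 29.5 CPM in uncut DMSO tails. With SB431542 it had 122, 146 and 162 CPM in cut tails, against 26.2, 26.6 and 27.9 CPM in uncut tails. All cut libraries lay above all uncut libraries, as for 15.5% of all genes tested under DMSO and 9.69% under SB431542. CLU was 6.48-fold higher in cut DMSO tails (log2 fold change 2.70 ± 0.18 SE, edgeR adjusted p = 3.126e-08) and 5.32-fold higher in cut SB431542 tails (2.41 ± 0.18 SE, edgeR adjusted p = 2.166e-07). Between SB431542 and DMSO edgeR and limma-voom called 0 of the 5 in cut and in uncut tails, and DESeq2 called 1 in each, APOD. By edgeR 2 in cut tails and 3 in uncut tails had an unadjusted p under 0.05, beside 15.3% and 16.5% of all genes. For CLU the log2 difference was -0.41 ± 0.17 SE in cut tails (edgeR adjusted p = 0.2411) and -0.13 ± 0.19 SE in uncut tails (edgeR adjusted p = 0.775).

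APOD (ENSDARG00000057437), which encodes apolipoprotein D, a lipocalin that binds small lipids, had higher levels with SB431542 that DESeq2 called and edgeR did not. It had 73.9, 73.0 and 56.9 CPM in cut SB431542 tails, against 43.0, 37.2 and 36.5 CPM in cut DMSO tails, and 81.4, 43.1 and 50.1 CPM in uncut SB431542 tails, against 30.8, 28.4 and 27.2 CPM in uncut DMSO tails. The SB431542 libraries lay above the DMSO libraries in both pairs of groups, in uncut tails as for 9.48% of all genes tested. The share of all genes for cut tails is not given. The log2 difference was 0.80 ± 0.21 SE in cut tails (adjusted p = 0.08844 by edgeR, 0.0308 by DESeq2 and 0.09627 by limma-voom). It was 1.02 ± 0.22 SE in uncut tails (adjusted p = 0.07 by edgeR, 0.005145 by DESeq2 and 0.1257 by limma-voom). APOD falls outside the rule for named genes and was chosen after its values were seen. apoc4 and apoa4b.3 had 0 counts in every library.

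In each list of genes that make, bind or clear lipoproteins, edgeR called 0 or 1 gene after excision under a treatment. Over all genes tested, 3.65% were called higher and 1.93% lower under DMSO, and 1.49% and 0.572% under SB431542. Groups without overlap were common, with 15.5% of all genes higher in this way after excision under DMSO and 9.69% under SB431542. Shares for a fall after excision, and for a rise with SB431542 in cut tails, are not given. The shares of all genes at an unadjusted p under 0.05 after excision are not given either. Of 13 genes for particle assembly, 5 were tested, and edgeR called 0 after excision under DMSO and 0 under SB431542, with 1 each at an unadjusted p under 0.05 and 0 by DESeq2 and limma-voom. Of 14 tested receptor genes edgeR called 1, LRPAP1, which encodes a chaperone of LDL receptor family members. Under SB431542, 4 of the 14 had an unadjusted p under 0.05 by edgeR, and DESeq2 also called stab1, higher (adjusted p = 0.04888). LRPAP1 had 15.8 ± 1.06 CPM in cut DMSO tails and 6.53 ± 2.68 CPM in uncut DMSO tails (2.50-fold higher, edgeR adjusted p = 0.01484), and 14.2 ± 2.72 CPM in cut SB431542 tails and 5.22 ± 2.27 CPM in uncut SB431542 tails (2.64-fold higher, edgeR adjusted p = 0.02714; SD, n = 3 each). Of 6 tested lipase and plasma remodelling genes, LIPG, which encodes endothelial lipase, fell under DMSO, with 14.3 ± 1.78 CPM in cut DMSO tails and 33.9 ± 9.04 CPM in uncut DMSO tails (SD, n = 3 each, 2.38-fold lower, edgeR adjusted p = 0.001683). Under SB431542 LIPG had 25.7, 28.8 and 27.3 CPM in cut tails, against 43.9, 36.4 and 30.0 CPM in uncut tails. Those groups did not overlap, and edgeR did not call it. Between the treatments in cut tails DESeq2 called LIPG higher with SB431542 (adjusted p = 0.01282) and edgeR did not (0.07383). After excision, 2 of the 6 had an unadjusted p under 0.05 by edgeR under each treatment. Under SB431542 DESeq2 called 1, LCAT, higher (adjusted p = 0.04799), and edgeR did not (0.1099). The median log2 fold changes under DMSO were -0.02 for assembly, -0.09 for receptors and -0.07 for lipases, beside 0.02 for all genes.

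Of 13 tested genes for cholesterol efflux and lysosomal lipid handling, edgeR called 2 after excision under SB431542 and 0 under DMSO. Under DMSO 4 had an unadjusted p under 0.05, a level whose share over all genes is not given, and DESeq2 and limma-voom called 0. abca1b, for a transporter that loads lipid onto apolipoprotein A-I, had 36.8 ± 2.44 CPM in cut SB431542 tails and 21.2 ± 0.350 CPM in uncut SB431542 tails (SD, n = 3 each, 1.74-fold higher, edgeR adjusted p = 0.02714). Under DMSO abca1b had 38.8, 43.9 and 39.9 CPM in cut tails, against 26.96, 30.8 and 37.6 CPM in uncut tails. These did not overlap, as for 15.5% of all genes tested in this direction, and abca1b missed the test (edgeR adjusted p = 0.2575, interaction adjusted p = 0.9096). In uncut tails abca1b averaged 21.2 CPM with SB431542 and 31.8 CPM with DMSO, and in cut tails 36.8 and 40.9 CPM. DESeq2 called it lower with SB431542 in uncut tails (adjusted p = 0.04945), and edgeR did not (0.1366). The other gene called under SB431542 had the symbol NPC2 (ENSDARG00000096979), for a lysosomal cholesterol carrier. It had 1.94, 1.33 and 2.71 CPM in cut SB431542 tails and 0 counts in all uncut SB431542 libraries. That was at least 5.45-fold higher against a floor of 3 counts per library (adjusted p = 0.01254 by edgeR and 0.02361 by limma-voom, with none from DESeq2). The gene passed the count filter through cut libraries alone, where it was high, so these p-values are not independent of the filter. Under DMSO this gene had 0.568, 1.90 and 0.823 CPM in cut tails, against 0, 0.286 and 0 CPM in uncut tails. Those groups did not overlap, as for 15.5% of all genes tested in this direction, and edgeR did not call it there. A second gene of the symbol (ENSDARG00000090912) was not called after excision. DESeq2 called it higher with SB431542 in cut tails (adjusted p = 0.03967) and uncut tails (0.001866), and edgeR did not (0.1339 and 0.07631).

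Of 12 tested cholesterol synthesis genes, edgeR called 1 after excision under DMSO, where 5 had an unadjusted p under 0.05, and 1 under SB431542, where 2 did. The share of all genes at that unadjusted level is not given. srebf2, for the transcription factor that turns on the pathway, fell under DMSO, to 33.2 ± 5.59 CPM in cut DMSO tails, against 54.7 ± 4.07 CPM in uncut DMSO tails (SD, n = 3 each, log2 fold change -0.72 ± 0.17 SE, edgeR adjusted p = 0.01775). Under SB431542 srebf2 had 41.5, 41.1 and 35.6 CPM in cut tails, against 42.7, 46.3 and 44.6 CPM in uncut tails. Those groups did not overlap, a fall whose share over all genes is not given, and edgeR did not call it. insig1, whose product retains that factor in the endoplasmic reticulum, fell by edgeR under SB431542, to 8.09 ± 1.40 CPM in cut SB431542 tails, against 18.3 ± 6.71 CPM in uncut SB431542 tails (SD, n = 3 each, log2 fold change -1.16 ± 0.29 SE, adjusted p = 0.04167 by edgeR, 0.008332 by DESeq2 and 0.07713 by limma-voom). Under DMSO insig1 had 9.34, 7.13 and 12.3 CPM in cut tails, against 19.9, 18.4 and 16.9 CPM in uncut tails. These groups did not overlap, and the share of all genes that fell without overlap is not given. insig1 just missed the edgeR test (log2 fold change -0.93 ± 0.27 SE, adjusted p = 0.05256 by edgeR, 0.03418 by DESeq2 and 0.05548 by limma-voom). Its interaction was -0.22 ± 0.40 SE (edgeR adjusted p = 0.9489). MSMO1, for a sterol demethylase of the pathway, was higher with SB431542 in uncut tails, with 4.56 ± 2.11 CPM in uncut SB431542 tails and 0.473 ± 0.341 CPM in uncut DMSO tails (SD, n = 3 each, 8.91-fold, adjusted p = 0.04984 by edgeR, 0.000848 by DESeq2 and 0.1286 by limma-voom). In cut tails MSMO1 had 2.86 ± 0.743 CPM with SB431542 and 0.589 ± 0.273 CPM with DMSO (SD, n = 3 each, log2 difference 2.26 ± 0.54 SE, edgeR adjusted p = 0.07383). These groups did not overlap, a rise whose share over all genes is not given. It had 2 to 9 counts in the uncut DMSO libraries and 9, 8 and 3 in the cut DMSO libraries. MSMO1 thus passed the count filter through SB431542 libraries alone, where it was high, so its p-values are not independent of the filter.

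**Figure D5:**
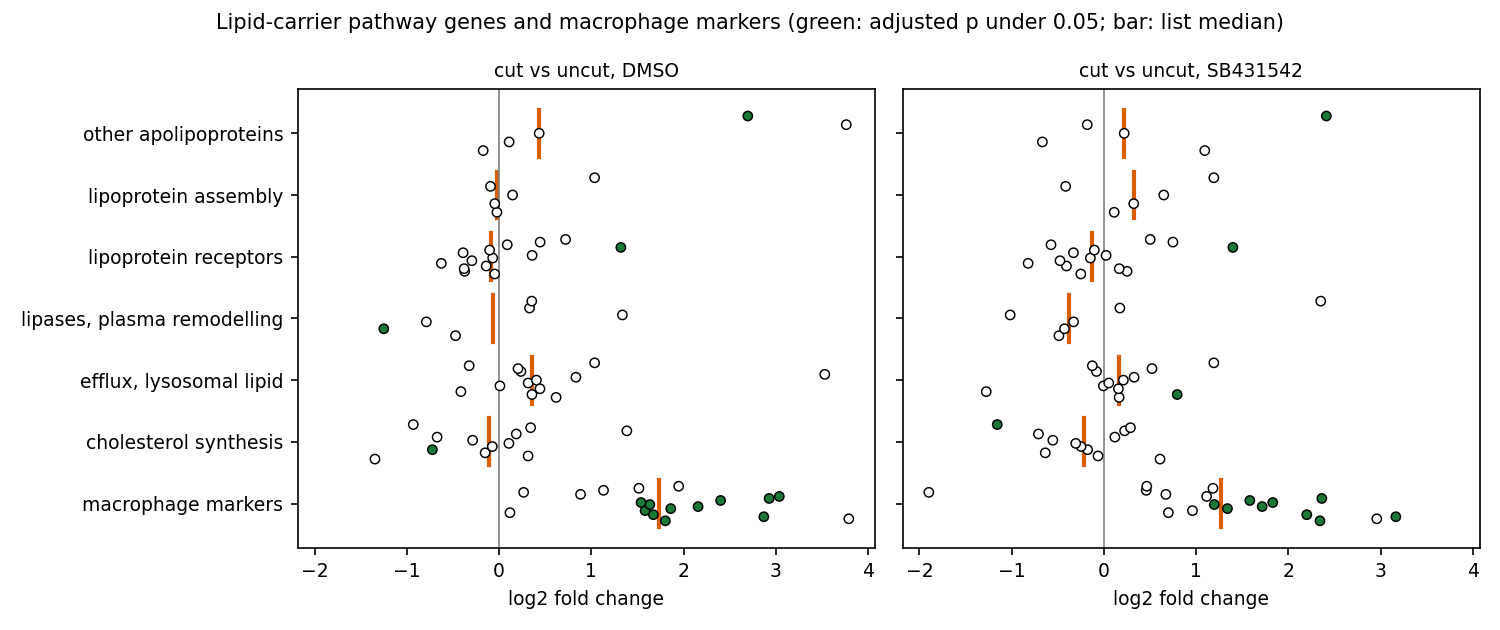
Log2 fold change after excision of each tested gene in 6 lists of lipoprotein and cholesterol genes and in the list of macrophage markers, under DMSO (left) and SB431542 (right), with filled points for an edgeR adjusted p under 0.05 and a bar at the list median. Filled points number 0 or 1 in each lipid list, and 11 (left) and 9 (right) in the macrophage list, and the NPC2 gene at 0 in all uncut SB431542 libraries is left out of the right panel.

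In the RefSeq gene table, whose assembly GRCz12tu differs from the build of the counts and was used for gene order alone, apoeb, apoc1, apoc4, apoa2 and apoc2 follow each other, with apolipoprotein A-IV genes before them. Within this run apoeb and apoc1 rose after excision under DMSO. apoa2, described above, and apoc2, for the protein that activates lipoprotein lipase, did not pass the test, with apoc2 at a log2 fold change of -0.17 ± 0.57 SE (edgeR adjusted p = 0.9037). apoea lies next to apoa4a elsewhere, and both were near 0.

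The genes most like each member were found by the root mean square difference of log2 CPM, centred on each gene's mean, over the 12 libraries and 7866 candidate genes of at least 5 CPM on average. For apoeb these were TAGLN, for transgelin, an actin-binding protein, at 0.236, cmpk, for a pyrimidine nucleotide kinase, at 0.256 and MANF, for a secreted factor of the endoplasmic reticulum, at 0.280. With SB431542 in cut tails edgeR called cmpk lower (log2 difference -0.93, adjusted p = 0.03432), and did not call TAGLN (0.2575) or MANF (0.08844). These genes were picked for their likeness to apoeb over the same libraries, so their differences are not independent of its own. For apoc1 they were SOCS3, for a feedback inhibitor of cytokine signalling, at 0.365, SBNO2 at 0.425 and lifrb, for a receptor of leukaemia inhibitory factor, at 0.444. The nearest genes of the scarce members lay farther off, with fthl28 at 0.805, USP39 at 0.807 and tnfrsf1a at 0.814 for apoa1a, SYT3 at 0.624, COLGALT1 at 0.646 and CCND2 at 0.720 for apoa1b, and USP39 at 1.23, ABHD2 at 1.24 and crfb2 at 1.25 for apoa2. Among the members themselves the closest pair was apoeb and apoc1, at 0.626, then apoa1a and apoa2, at 0.895, and the other pairs lay at 0.921 to 1.55.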

How the data were processed

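Messenger RNA of 12 pools of larval tails was read with the Lexogen QuantSeq FWD kit, per the labels' protocols. The authors deposited estimated counts for 30258 Ensembl genes, of which 23.1% to 26.7% of the values above 0 per library were not whole, and a normalized signal per gene, scaled by 1 factor per library. Per the submitters' processing notes the genome was GRCz11; no source used here gives the aligner or counting program. Dividing out the factor of the deposited signal gave whole reads, within 1e-04, for 100% of values, and 100% equalled the rounded counts; the test on them, added after the data were seen, called 780 genes after excision under DMSO. Symbols matched 23598 IDs (77.99%).

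Counts were rounded and tested with edgeR 4.0.16 in R 4.3.3 (TMM scaling, filterByExpr, robust quasi-likelihood fit of 4 group means with adjusted deviances), leaving 13978 genes, with a common biological coefficient of variation of 0.261. P-values were two-sided, adjusted by the Benjamini-Hochberg method over these genes in each comparison, and called under 0.05. Scripts were tested on simulated data. Alternatives were DESeq2 1.42.0, scaling by RLE or by upper quartiles, limma-voom and limma-trend (limma 3.58.1, limma-trend on the normalized signal with a pseudocount of 1 or 0.1), no filter, a stricter one (1 CPM on average and, in 1 group, 10 counts per library), a replicate block, a fit of the compared groups alone, and the omission of each library in turn, with the earlier form of the edgeR fit added later. The members, the gene lists and the tests were chosen with earlier results of these data known. Of the list entries, 123 matched a symbol exactly, 75 with case ignored, 35 after the paralogue letter was dropped (all IDs of the symbol were then used), and 22 did not match. Named are the 8 members, up to 4 called genes of each list with the smallest adjusted p, and the 3 genes most like each tested member; fewer are printed for the marker lists. The lists of erythrocytes and fin fold mesenchyme served to check the tissue, with sums of 1501 to 3921 CPM and 3660 to 5551 CPM.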

Additional observations from a re-analysis of the deposited data

How the results depend on the processing

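Counts of members called after excision under DMSO were 2 to 3 over the 12 alternatives that kept every library and 2 to 4 over the fits that left out 1, with 4 without cut DMSO replicate 4, where apoa1a and apobb.1 (adjusted p = 0.0214) joined apoeb and apoc1. apoeb and apoc1 were called in 24 of 24 alternatives there, with log2 fold changes of 1.81 to 2.15 and 2.24 to 2.74. Under SB431542, apoeb was called in 24 of 24, at 0.95 to 1.25. Between SB431542 and DMSO in cut tails the count was 0 and became 1, apoeb, with DESeq2, limma-voom, no count filter and a fit restricted to the compared groups, and 0 to 1 over the fits that left out a library. No member was called in uncut tails or for the interaction under any alternative. The labels do not say whether replicate numbers pair the libraries. The correlations of same-numbered deviations from the group means were -0.05 to 0.34. They were not set beside those of libraries with different numbers, so they cannot decide whether the libraries were paired. With the replicate block, 3 members were called after excision under DMSO, with apoa1a added (adjusted p = 0.04059), 1 under SB431542 and 0 elsewhere.

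Of the recomputed log2 fold changes, 554 kept their direction and side of the threshold, 12 newly passed it and 26 changed sign, none of them called. With the replicate block, SB431542 against DMSO in cut tails gave 0.35 for apoa2 and 0.14 for apoc1. With pseudocounts of 1 and 0.1, apoa1b gave -0.0086 and -0.059 for SB431542 against DMSO in uncut tails, and interactions of 0.28 and 0.35, beside 0.18 with limma-voom. The rest came from leaving out 1 library. Over those fits, excision under DMSO gave -0.0073 to 1.29 for apoa1b and -0.15 to 2.70 for apoa2, and excision under SB431542 gave -0.47 to 2.13 for apoa1b and -0.63 to 1.64 for apoa2. SB431542 against DMSO in cut tails gave -0.95 to 0.63 for apoa1a, -0.34 to 0.88 for apoa1b, -2.23 to 1.06 for apoa2 and -0.44 to 0.021 for apoc1. In uncut tails it gave -0.24 to 0.11 for apoeb, -1.26 to 1.35 for apoa1b and -0.73 to 1.11 for apoa2. The interaction ran from -1.32 to 1.28 for apoa1b and from -2.78 to 0.51 for apoa2. The cause was not tested. apoa1a, apoa1b, apoa2 and apoc1 had 0 to 262 counts per library and the members below the filter 0 to 52, which limits their precision. The within-group spread of apoa1a, apoa1b and apoa2 was above that of nearly all genes of like level, and that of apoc1 was not. apoeb, with 2353 to 19653 counts per library, changed sign in 1 alternative, in uncut tails, where its log2 difference was -0.10 ± 0.19 SE.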
